A study of Mus musculus with 4 samples.

Results

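Sox11 encodes a transcription factor of newborn neurons, and its mRNA was among those with the most clusters of the RNA-binding protein IMP2 in the E14 mouse brain. The clusters were selected on the symbol Sox11 (transcript NM_009234) in the deposited list and reduced to distinct positions, and they numbered 25 of the 1828 distinct clusters of the list (1.37%). The list was made by HITS-CLIP, in which ultraviolet light joins a protein to the RNA it touches and the RNA fragments recovered with an antibody are sequenced. All 4 libraries, IMP2_R (2 libraries) and IMP2_M (2 libraries), came from E14 brains of Swiss Webster mice with no treatment or allele named, and the labels do not say what the letters stand for or whether animals were pooled. They do name 2 antibodies against IMP2 and the nuclease benzonase. One list stood for all libraries, so no value below has a replicate error, no groups were compared and every comparison is a description within the list. No input or control precipitation was analysed here.

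SOX proteins bind DNA through a domain shared with the testis-determining factor SRY, the HMG box. Sox11, Sox4 and Sox12 form the C group, which is switched on as neural progenitors leave the cell cycle and turns on genes of the neuronal cytoskeleton. IMP2 (gene Igf2bp2) belongs to a family of RNA-binding proteins that contact mRNAs, often in the 3' UTR, and act on their stability, transport and translation. Sox11 has no introns, and most of its mRNA is 3' UTR. In the deposited annotation the transcript spans 8451 bases of the minus strand (chr12:28019133-28027583, mm9), of which 6953 bases are 3' UTR (chr12:28019133-28026085) and 1498 bases are coding sequence and 5' UTR. The whole span lies on 1 chromosome strand read from high to low coordinates, so distances below are counted in bases from the stop codon towards the 3' end.

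All 25 Sox11 clusters lay wholly inside the 3' UTR, as did 94.1% of the clusters of the list by their midpoint, and none lay in the other 1498 bases of the transcript. A cluster is a stretch of overlapping CLIP tags, and its height is read here as the largest number of tags that overlap in it. The Sox11 heights ran from 21 to 90 with a median of 49, where the 1803 clusters of other genes had a median of 30 and a range of 18 to 107. The middle 50% of the Sox11 heights lay between 29 and 80, and those of the other genes between 24 and 38. The Sox11 clusters therefore spread from just above the lowest height of the list almost to its top. Of the 25 clusters, 17 were taller than the list's median of 30, against 46.9% of all clusters. Sox11 was chosen by its number of clusters and their heights, so these counts describe it and are no test. The list holds no measure of RNA abundance, and more Sox11 RNA per cell, more cells with Sox11 RNA and more IMP2 per Sox11 RNA cannot be told apart.

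The tallest Sox11 cluster had a height of 90 and lay near the middle of the 3' UTR, at bases 3410 to 3785 (chr12:28022301-28022676, 376 bases wide). A cluster of height 87 lay further on at bases 3924 to 4087 (chr12:28021999-28022162, 164 bases wide). The next in height, 86, was far upstream at bases 594 to 863 (chr12:28025223-28025492, 270 bases wide). A cluster of height 85 at bases 4104 to 4202 (chr12:28021884-28021982, 99 bases wide) adjoined the one of height 87 with 16 bases between them. Height 83 was reached at bases 1141 to 1300 (chr12:28024786-28024945, 160 bases wide). Tall clusters thus occurred on both sides of the 3' UTR and were not a single summit with shoulders. The clusters of height 81 (bases 5673 to 5768) and 80 (bases 4467 to 4850) completed those of at least 80.

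Heights of 80 or more were rare in the list, at 27 clusters or 1.48%, and Sox11 held 7 of them (25.9%). No other gene held more than 3. Map1b, which encodes a microtubule-associated protein of growing axons, held 3, while Dpysl2 (the collapsin response mediator CRMP2), Rtn1 (a reticulon) and Scd2 (a fatty acid desaturase) held 2 each. A further 11 genes held 1 each. The bound of 80 was chosen after the values were seen. With a lower bound of 50, the list had 203 clusters in 102 genes. Sox11 held 12 of them, no more than the doublecortin gene Dcx, so its lead at 80 was not kept at 50.

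The shortest Sox11 clusters lay between and beyond the tall ones. The lowest height, 21, was at bases 2032 to 2081 (chr12:28024005-28024054), the last cluster before the longest gap. A height of 24 was found at bases 882 to 952 (chr12:28025134-28025204), 18 bases after the cluster of height 86. A height of 25 was found at bases 3862 to 3892 (chr12:28022194-28022224), at bases 5522 to 5607 (chr12:28020479-28020564) and at bases 6349 to 6386 (chr12:28019700-28019737), the last of which was the most distal cluster of the gene. The most proximal cluster, of height 28, began 73 bases after the stop codon (bases 74 to 115, chr12:28025971-28026012). The clusters nearest to each end of the 3' UTR were therefore both short.

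**Figure D1:**
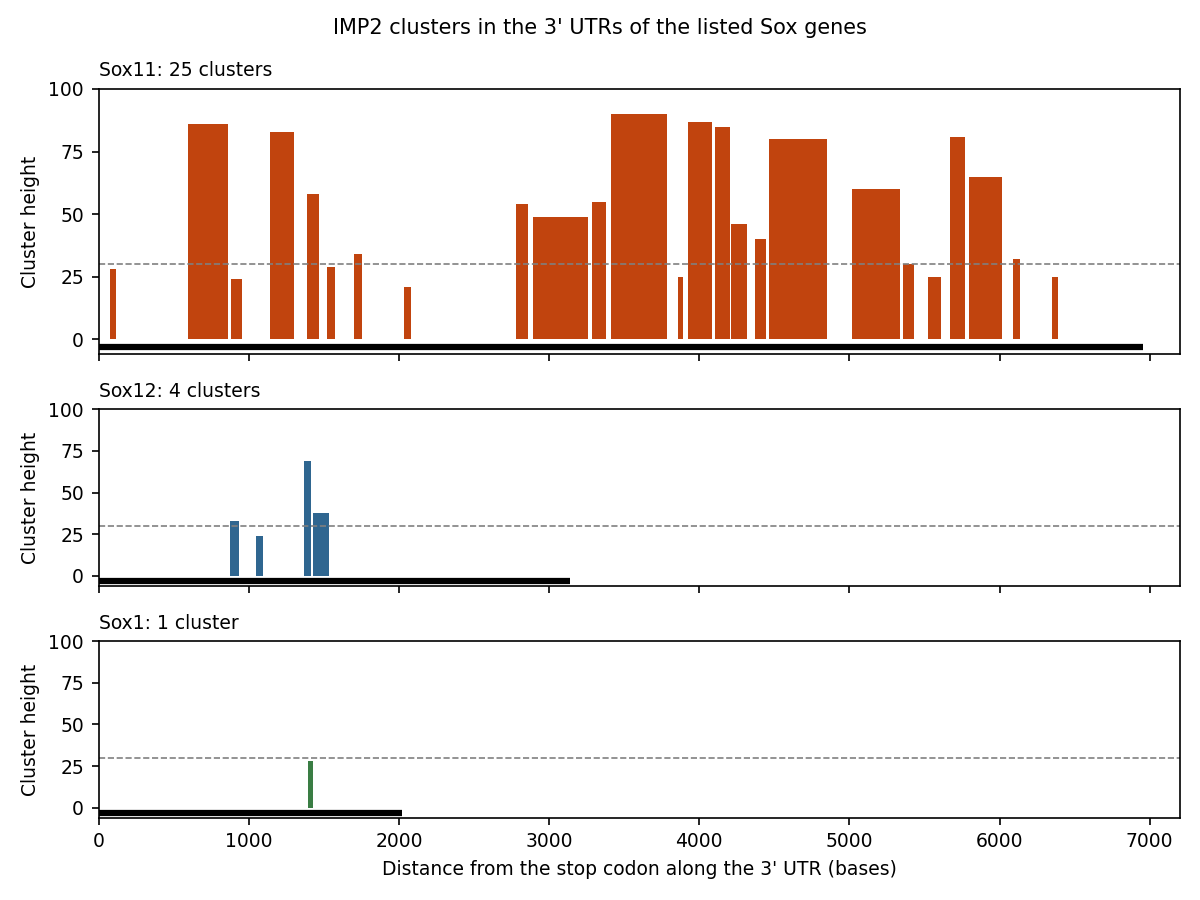
Each bar is 1 IMP2 cluster of Sox11, Sox12 or Sox1, drawn to scale from its first to its last base (x axis, bases from the stop codon) with its height on the y axis; the black line is the 3' UTR and the dashed line the list's median height of 30. Sox11 bars stand along most of its 6953 bases with an empty stretch of 700 bases and none over the last 567, while Sox12 has 4 bars and Sox1 has 1.

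The clusters covered 3415 bases, or 49.1%, of the Sox11 3' UTR, but unevenly. In windows of 500 bases, each of the 6 windows from base 3001 to base 6000 was covered by between 70.0% and 87.8%. The windows at bases 1 to 500 and 2001 to 2500 were covered by 8.40% and 10.0%, and those at 1501 to 2000 and 6001 to 6500 by 20.2% each. No cluster reached past base 6386. The window at bases 501 to 1000 was covered by 68.2%, between neighbours at 8.40% and 47.2%. The longest gap between neighbouring clusters measured 700 bases (between bases 2081 and 2782), followed by gaps of 478 bases (between bases 115 and 594) and 280 bases (between bases 1751 and 2032), and 567 bases lay between the last cluster and the 3' end. All other gaps were shorter, and the median of the 24 gaps was 61 bases.

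The longest run of clusters with no gap over 100 bases went from base 2782 to base 4850. It held 10 clusters, and they took up 1767 of its 2069 bases. The next longest, at bases 5017 to 6133, held 6 clusters over 1117 bases. Of the 24 gaps, 17 measured at most 100 bases, 10 at most 50 and 4 at most 20. The smallest, 11 bases, separated the clusters of height 85 and 46. The number of clusters therefore depends on how close neighbours may be before they count as one: it fell to 21 when gaps of at most 20 bases were bridged, to 15 at 50 bases and to 8 at 100 bases. On a scale from 0% at the stop codon to 100% at the 3' end, the cluster midpoints averaged 50.7%, and 51.0% when weighted by height.

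Sox11 clusters were also wide. Their widths ran from 31 to 384 bases with a median of 86, against a median of 53 among the clusters of other genes. Widths over 250 bases were found in 5 Sox11 clusters, where 33 clusters (1.81%) of the whole list were that wide. These 5 had heights from 49 to 90 and took up 1716 bases of the 3' UTR. The widest, of 384 bases and height 80, held rank 7 in width in the list. Across the 25 clusters width and height rose together (Spearman's rho 0.79), and over all 1828 clusters rho was 0.53. Both values are given as descriptions, since clusters of 1 transcript share their libraries and their RNA.

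The authors' second score, the fold of the height, placed Sox11 differently. Its folds ran from 2.30 to 8.99 with a median of 5.19, close to the median of 5.41 for clusters of other genes, and 11 of 25 were above the list's median of 5.40, against 49.9% of all clusters. The highest fold, 8.99, belonged to the cluster of height 85, and the tallest cluster had a fold of 7.78. By its highest height Sox11 held rank 9 among 761 genes, tied with Map1b and Scd2, but by its highest fold it held rank 146. The 8 genes with a taller cluster, Nnat, Nrep, Dpysl2, Rtn1, Eif4g2, Pgrmc1, Cd24a and Lars2, had between 2 and 11 clusters each, fewer than Sox11. Nnat, the imprinted gene of neuronatin with the tallest cluster of the list (107), held rank 59 in fold, and Map1b rank 191. Lars2, the mitochondrial leucyl-tRNA synthetase gene, with a cluster of height 91, held rank 10 with a fold of 17.7.

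The short Sox11 clusters had the lowest folds. In 8 of the 25 the fold was under 3, against 5.91% of all clusters, and these 8 had heights from 21 to 30. Their median fold was 2.67, where the 813 clusters of the list with heights from 21 to 30 had a median of 4.57. Height divided by fold gives the level that the height was set against, which the file header does not define. For Sox11 this level ran from 6.55 to 11.9 with a median of 10.4, and for the clusters of other genes it had a median of 5.94 and a range of 1.00 to 12.9. It was at least 10 in 16 Sox11 clusters, against 3.56% of all clusters. The gene's median level held rank 4 among the 761 genes and rank 1 among the 23 genes with at least 10 clusters, where Map1b (10.2) and Dcx (9.50) came next. Dcx encodes doublecortin, a microtubule-associated protein of migrating neurons.

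**Figure D2:**
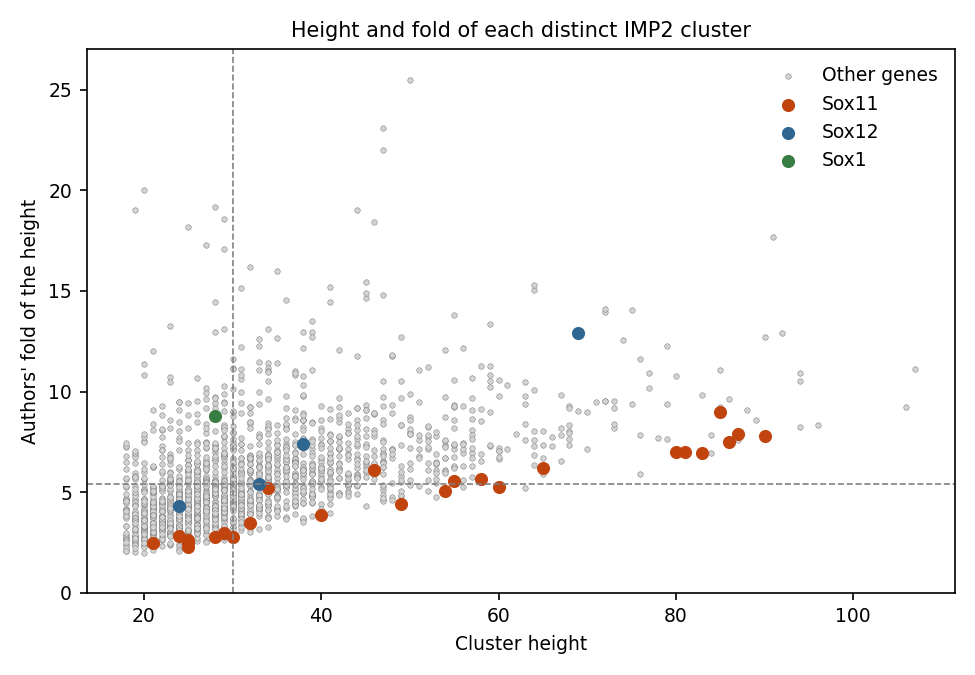
Each point is 1 distinct IMP2 cluster, with its height on the x axis and the authors' fold of the height on the y axis; Sox11, Sox12 and Sox1 are coloured, other genes grey, and dashed lines mark the medians of 30 and 5.40. Most Sox11 points lie near the lower edge of the cloud, from a height of 21 to 90, while those at heights of 34 and 46 lie inside it, and the tallest Sox12 point, at 69, has a fold of 12.9.

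Among genes with long 3' UTRs, Sox11 had the largest share covered. Its 3' UTR ranked 23 in length among the 729 genes with a 3' UTR cluster, whose median was 1998 bases. In 62 of these genes the 3' UTR had at least 5000 bases; their median number of 3' UTR clusters was 2 and their median share covered 1.82%. Sox11 came first among the 62 in share covered (49.1%) and in height of its highest cluster (90), and Dcx was next in share covered with 41.6% of 7709 bases. Fzd3, a Frizzled receptor gene of axon tracts, followed with 18.9% of 10278 bases. In number of bases covered, Sox11 led all 729 genes with 3415, ahead of Map1b (3259) and Dcx (3205), where the median gene had 74.

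Shorter 3' UTRs could be covered more fully. A larger share than that of Sox11 was found in 17 genes, and their median length was 1062 bases. The longest of them was Map1b, with 75.1% of 4342 bases. Per kilobase, Sox11 had 3.60 clusters in its 3' UTR and ranked 54, where the median gene had 0.861. Of the 62 genes with long 3' UTRs, Dcx alone was denser, at 4.41 per kilobase.

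Most listed genes with a 3' UTR about as long as that of Sox11 had few clusters. Among genes with a 3' UTR cluster, 14 others had a 3' UTR within 10% of the length of Sox11 (6315 to 7641 bases). They had a median of 2 clusters in it. Genes without a cluster have no length in the list and were not counted. Celf2, a splicing and decay regulator, had the most with 12 clusters and a highest height of 57. Nfib and Nfia, transcription factors of the nuclear factor I family that act in glial and neuronal differentiation, had 12 and 10 clusters in all and highest heights of 54 and 51. At the other end, 7 genes had 1 cluster each, among them Zkscan1 (height 27), a zinc-finger gene, Lrrc58 (23) and Sema5a (22), which encodes a semaphorin guidance protein. The highest share covered among the 14 was 15.0%, in Nfib. Sox11 lay outside their range in number of clusters, height and share covered. Dcx, just past the 10% limit with 7709 bases, had 34 clusters, a highest height of 85 and 41.6% covered.

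**Figure D3:**
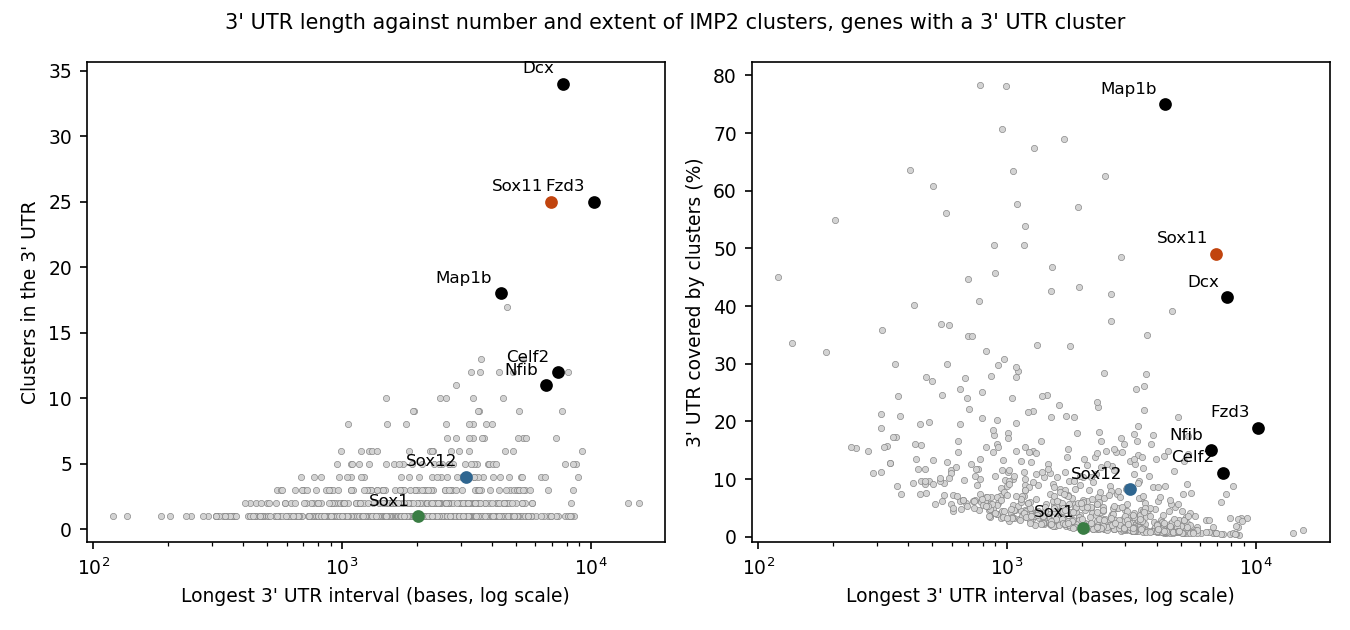
Each point is 1 of the 729 genes with an IMP2 cluster in a 3' UTR, with the longest 3' UTR interval on a log x axis against the number of clusters in it (left) and the share of it that they cover (right). Sox11 stands with Dcx and Fzd3 above genes of like length on the left, and has the highest share on the right among 3' UTRs of at least 5000 bases.

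In number of clusters Sox11 shared rank 3 with Map1b (25 each), after Dcx (34) and Fzd3 (27). The cyclin gene Ccnd2 of neural progenitors followed with 17, and Kif5c (a kinesin), Tubb5 (a beta-tubulin) and Xpr1 (a phosphate exporter) with 13 each. As in Sox11, all clusters of Dcx, Ccnd2, Kif5c and Xpr1 lay in the 3' UTR. Map1b had 7 of its clusters in the coding sequence and Fzd3 had 2, while Tubb5 had 4 there and 1 in the 5' UTR. Among these 8 genes the median height of a gene's clusters was highest in Sox11 and Map1b (49 each), followed by Dcx (38), Ccnd2 and Kif5c (35 each), Xpr1 (34), Fzd3 (31) and Tubb5 (30). With heights summed over clusters, Sox11 (1292) ranked second to Dcx (1461) and ahead of Map1b (1239).

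The genes most like Sox11 in number of clusters, highest height and 3' UTR length were Dcx, Map1b, Ccnd2, Xpr1 and Eif4g2, in that order. Likeness was the distance over these 3 measures, each as a log2 value scaled over 729 genes, with distances of 0.47, 0.61, 0.86, 1.19 and 1.25. The order describes 1 list and not a pattern over samples. Eif4g2, a translation initiation factor gene, had 11 clusters, of which 4 were in its 3' UTR. Ccnd2 was close to Sox11 in clusters per kilobase (3.67) but lower in its highest height (77) and in the share covered (39.2% of the 3' UTR).

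Of the Sox family, 3 of 20 genes were in the list, Sox11, Sox12 and Sox1, where 3.47% of all protein-coding genes were. Sox11 and Sox12 also had a cluster taller than the list's median, as did 1.87% of all protein-coding genes, and at least 2 clusters, as did 1.56%. Sox11 was chosen for its clusters, so its part in these counts was settled by that choice. Apart from Sox11, the first count rests on Sox12 and Sox1, and the others on Sox12 alone. Within the C group, Sox12 (transcript NM_011438) had 4 clusters, all in its 3' UTR of 3142 bases on the minus strand of chromosome 2. Their heights from the stop codon onwards were 33, 24, 69 and 38. The tallest, at bases 1366 to 1413 (chr2:152221077-152221124, 48 bases wide), had a fold of 12.9, above any fold of Sox11, and lay 12 bases before the cluster of height 38. Sox12 clusters covered 8.24% of the 3' UTR, at 1.27 per kilobase, and the level implied by height and fold was between 5.15 and 6.12, below the lowest of Sox11 (6.55). Sox4, the third member of the C group, was not in the list.

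Sox1, which keeps neural progenitors undifferentiated together with Sox2 and Sox3, had a single cluster of height 28 and fold 8.78 in its 3' UTR of 2019 bases (transcript NM_009233, chr8:12398933-12398963, plus strand). That fold was close to the highest of Sox11, at a height below the list's median. Sox2, Sox3, Sox9, a gene of radial glia, and Sox10, of the oligodendrocyte lineage, were among the 17 family members that were not listed. The order of the 3 listed genes was the same in number of clusters, highest height and share of the 3' UTR covered, with Sox11 first and Sox1 last, while the highest fold was that of Sox12.

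No transcription factor of the neuronal and progenitor lists, which do not include Sox11, had as many clusters as Sox11 or as tall a one. Because Sox11 was chosen for its clusters, this is a description and no test. The counts of listed factors below stand beside 3.47% of all protein-coding genes. Of 22 proneural and neuronal differentiation factors, 6 were listed (27.3%), with a median highest height of 36. Tcf4, an E-protein partner of proneural factors, led with 12 clusters and a height of 64. St18 (49) and Myt1l (47), zinc-finger genes of the same neuronal family, and Tcf12 (25) had 1 cluster each. Of 32 factors of neuronal subtypes and layers, 12 were listed (37.5%), with a median of 34.5, among them Nfib (54), Nfia (51) and the homeobox gene Zfhx3 (42, 6 clusters). Of 18 progenitor factors 3 were listed (16.7%), each with 1 cluster and a height of at most 28, namely Sox1, Nr2f1 (24) and Nr2f2 (23). Both neuronal lists hold genes with shorter 3' UTRs than Sox11, such as Myt1l with 2728 bases and Zfhx3 with 4534. Nfib (6621 bases) and Nfia (7641 bases) were within 10% of its length. Heights and counts were not adjusted for length.

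Transcripts of genes reported to be switched on by Sox11 or Sox4 in young neurons were partly listed. Of the 4 taken from general knowledge (Tubb3, Map2, Dcx and Tead2), Dcx (34 clusters, highest height 85) and Map2 (12 clusters, 64), which encodes a microtubule-associated protein of dendrites, were in the list. Tubb3, a neuronal beta-tubulin, and Tead2, a partner of the growth regulator YAP, were not. The listed shares of these lists are set against 3.47% of all protein-coding genes, most of which were not chosen for a role in brain.

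Markers of the labelled tissue, brain, were set against those of other cells, beside the 3.47% of all protein-coding genes that were listed. Of 10 markers of neurons 7 were listed, with highest heights from 20 (Mapt) to 107 (Nnat); Tubb3, Stmn1 and Elavl4 were not. Markers of microglia and macrophages (0 of 8) and of the oligodendrocyte lineage (0 of 7) were not listed, and at a share of 3.47% few or none would be in lists this short. Erythroid markers had 3 of 7 (highest height 27), of which Hba-a1 and Hba-a2 shared 1 cluster. Markers of endothelium and meninges had 4 of 9, namely Rgs5 (a pericyte gene, highest at 47), Col1a1, Col3a1 and Zic1. The others, Pecam1, Cdh5, Kdr, Sox17 and Sox18, were not listed. All of these highest heights were below 49, the median over the Sox11 clusters. So were those of the neuronal markers Mapt (20), Gap43 (27) and Elavl3 (43), while Dcx, Stmn2, Map2 and Nnat were above it. By fold, however, Rgs5 (23.1), Col1a1 (20) and Col3a1 (18.6) lay above the highest fold of Sox11 (8.99). Zic1 (7.4) and the erythroid markers lay below it. No transcript of the IMP family itself (Igf2bp1, Igf2bp2 and Igf2bp3) was listed.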

How the data were processed

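The analysis used 1 deposited list of IMP2 clusters for all 4 libraries. Per the submitters' processing notes, Bowtie, FastQC and the genome build mm9 were used. Not given in the sources used here are how peaks were called, with which thresholds and RefSeq release, and whether libraries were pooled. Heights were deposited as a signal (pileup) in whole numbers, at least 18. The second deposited score is, per the file headers, a fold of the height, a ratio of at least 2 to a level the header does not define. The authors' values describe clusters only. The tags per library are not given here, so the depth behind a height is unknown. PCR duplicates were not examined.

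The 2865 lines were reduced to 1828 distinct clusters in 761 genes, starts were made 1-based, and regions were assigned by midpoint. For current names and for the total of 21900 protein-coding genes, transcripts were matched to RefSeq on GRCm38 (1088 of 1099 by accession, the others by name), without its coordinates. 3' UTR length is that of a gene's longest deposited interval. Genes tied in rank share the better rank. Named genes were the Sox genes, those with the most or tallest clusters, those most like Sox11 or of like 3' UTR length, and up to 4 per list; further genes that complete a count were named after their values were seen. Gene lists and members were chosen with earlier results of these data known. Functions were tested on simulated data. Python 3.11.15, pandas 2.3.3, numpy 2.4.6 and scipy 1.17.1 were used.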

Additional observations from a re-analysis of the deposited data

How the results depend on the processing

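No paired analysis was possible because the list has no column for each library, and for the same reason no library could be left out. The number of Sox11 clusters was 15 with gaps of at most 50 bases bridged, 8 at 100 bases and 11 with only folds above the median. Its rank of 3 by number of clusters became 7 with gaps of at most 100 bases bridged and 54 per kilobase of 3' UTR. Its rank of 9 by highest cluster became 146 by highest fold, 27 by the median height of its clusters and 2 by summed height. The share covered was 42.9% with taller clusters alone and 52.6% with bases between clusters at most 50 bases apart added. Counting only clusters taller than the median left 3 of 22 differentiation factors, 0 of 18 progenitor factors and 0 of 7 erythroid markers. It left 2 of 9 markers of endothelium and meninges, where 1.87% of all protein-coding genes had such a cluster. Counting only genes with at least 2 clusters left 1 of 22 differentiation factors, 7 of 32 subtype factors, 0 progenitor factors and 0 erythroid markers. Of all protein-coding genes 1.56% had at least 2 clusters. At such shares few or none would remain in lists of 18 or 7. The cause of these shifts was not tested beyond the change in what was counted. The cluster count with touching clusters joined, the region rules and the mean position kept their values within the limits used. Heights are whole numbers without a known depth, so small differences between clusters carry no error.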
